A study of Mus musculus with 8 samples.

Results

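Dendritic cell identity genes are transcripts by which dendritic cells and their subsets are recognised, and 10 of them were followed here in RNA-seq libraries of mouse microglia. The genes were Flt3, Zbtb46, Batf3, Id2, Tcf4, Clec9a, Xcr1, Itgae, Cd209a and Ccr7, matched by symbol to the Ensembl identifiers of the deposited gene counts, and all 10 were found among 41388 identifiers. Of the 10, 6 held enough counts to be tested, and 4 (Clec9a, Xcr1, Cd209a and Ccr7) did not and are given as raw counts. The study compared microglia of mice with neuromyelitis optica (NMO), in which inflammation attacks the optic nerves and spinal cord, with microglia of unmanipulated mice. Cells of adult C57BL/6 mice were sorted ex vivo by CD11b, CD45 and CD11c, total RNA was prepared with an Illumina TruSeq kit, and the libraries were sequenced in 3 groups. The groups were CD11c-positive cells of NMO mice (CD11c+, n = 2 libraries), CD11c-negative cells of NMO mice (CD11c-, n = 3) and control cells (n = 3), which are labelled CD11c-negative but titled as total microglia. No CD11c+ control group is among the libraries. CD11c, the product of Itgax, marks dendritic cells as well as some microglia, so the sort that defined the groups used a dendritic cell marker. How NMO was induced, and whether separate mice gave the libraries of a group, is not in the labels, and p-values therefore measure only the spread between libraries, which may be technical. The titles number the NMO libraries 7 to 12 and the controls 21 to 23, and any difference in handling between those numbers and the disease cannot be told apart.

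Dendritic cells take up antigen and present it to T cells. They develop from bone marrow precursors under the cytokine FLT3 ligand, and the conventional subsets express the transcription factor Zbtb46. Type 1 conventional dendritic cells (cDC1) depend on Batf3, Id2 and Irf8, carry XCR1 and CLEC9A and, in many tissues, the integrin CD103, and cross-present antigen. Type 2 cells (cDC2) often carry CD209a, plasmacytoid cells depend on the E protein TCF4, and mature cells of either conventional subset use CCR7 to travel to lymph nodes. In the healthy brain such cells sit mainly in the meninges and choroid plexus, while microglia, the resident macrophages of the tissue, share several of their transcription factors.

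The upstream regions of 3 of these genes are shown because the results below turn on them: Flt3, Xcr1 and Cd209a. Flt3 is the member whose difference from control passed the test. The raw counts of Xcr1 and Cd209a, summed by group, stood highest and lowest, respectively, in the CD11c- group. Each is the 250 bases before the start of the gene on the minus strand of GRCm38.p6, 5′ to 3′, from RefSeq, and no annotated exon lies in it. The windows are chr5:147400490-147400739 for Flt3, chr9:123862030-123862279 for Xcr1 and chr8:3748985-3749234 for Cd209a. Capitals mark matches to an E-box, CAGNTG, the short motif bound by E proteins such as TCF4, whose DNA binding Id proteins such as ID2 block.
Flt3: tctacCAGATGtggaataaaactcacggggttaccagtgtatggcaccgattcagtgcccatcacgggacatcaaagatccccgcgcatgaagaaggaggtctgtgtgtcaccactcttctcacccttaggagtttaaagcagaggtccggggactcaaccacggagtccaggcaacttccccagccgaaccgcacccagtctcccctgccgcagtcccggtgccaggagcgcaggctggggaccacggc
Xcr1: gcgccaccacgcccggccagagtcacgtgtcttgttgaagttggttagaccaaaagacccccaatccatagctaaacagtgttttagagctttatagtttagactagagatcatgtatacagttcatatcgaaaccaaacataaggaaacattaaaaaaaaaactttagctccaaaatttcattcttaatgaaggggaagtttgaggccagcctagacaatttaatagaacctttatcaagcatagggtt
Cd209a: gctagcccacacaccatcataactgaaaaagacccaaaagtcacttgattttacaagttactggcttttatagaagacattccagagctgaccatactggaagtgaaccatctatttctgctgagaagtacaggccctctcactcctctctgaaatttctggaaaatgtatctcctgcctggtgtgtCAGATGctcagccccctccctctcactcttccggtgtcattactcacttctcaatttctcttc
Flt3 held CAGATG from 245 to 240 bases before its start, Cd209a held CAGATG from 63 to 58 bases before its start, and the Xcr1 window held no match. Other motifs were searched on both strands in the same windows and had no match in these 3: the AP-1 motif TGANTCA (the kind of site BATF3 binds with JUN proteins), the interferon-stimulated response element ISRE (GAAA, any 2 bases, GAAA) and the PU.1 motif GAGGAAGT. Over all 32851 RefSeq windows of that length, 44.8% held the E-box, 6.75% the AP-1 motif, 2.98% the ISRE and 2.44% the PU.1 motif, so an E-box match is common. No motif overlapped another in these windows, a match describes letters only, and no binding was measured. Windows of 7 of the 10 genes were searched.

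The libraries held 4943207 to 9246061 counts in total, and all carried strong microglial expression: the summed level of 10 microglia markers was 32730 to 46300 CPM (counts scaled to a common library size) in every library. CD11c+ replicate 1 stood apart, since its deviation from the mean library rose with gene GC content (Spearman correlation across genes 0.592, against -0.299 to -0.038 in the other 7). Several results are also given without it, but not every result that may rest on it. The sort was visible in Itgax itself, at 188 and 181 CPM in the CD11c+ libraries, 35.5, 41.3 and 40.0 in the CD11c- and 30.6, 32.1 and 31.0 in the control libraries. Markers of other blood cells were uneven. The sum over 9 neutrophil markers was 15.3 and 19.6 CPM in CD11c+, 3012, 10640 and 2027 in CD11c- and 855, 1072 and 1734 in control libraries, and all 9 were called lower (edgeR adjusted p under 0.05) in CD11c+ than in CD11c- cells, but 0 without CD11c+ replicate 1. The sum over 8 monocyte markers was 44.9 to 55.0 CPM in CD11c+, 202 to 993 in CD11c- and 82.8 to 158 in control libraries. Most of the sum in CD11c- and control libraries was Chil3 (0.659, 392 and 83.1 CPM as means of CD11c+, CD11c- and control). It was called lower in CD11c+ than in both other groups, both calls being lost without CD11c+ replicate 1 and that against CD11c- also without control replicate 2. The 8 markers did not move together in CD11c+ against control, where 5 had a positive difference: Fn1 was at 22.7, 35.3 and 4.19 CPM and rose 5.39-fold in CD11c+ (edgeR adjusted p = 0.000668) and 8.40-fold in CD11c- (adjusted p = 0.000143) against control. T cell markers summed to 0.262 to 1.10 CPM with Cd3e, Cd3g, Trbc2 and Themis at 0 counts, and natural killer cell markers to 0 to 4.22 CPM with Ncr1 at 0. The part of these cells in the results below was not tested, and in bulk RNA fewer cells of a type and less RNA per cell cannot be told apart.

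Per length of exon, the 10 genes spanned a wide range of levels. Id2 was highest, at 104 RPKM (CPM per kilobase of exon) as the mean of CD11c+, 49.6 of CD11c- and 40.4 of control libraries, and ranged from 24.6 to 175 over the 8. Batf3 followed at 9.66 to 21.6 RPKM and Tcf4 at 5.24 to 7.84. Itgae lay at 1.115 to 2.11 RPKM and Zbtb46 at 0.676 to 1.10. These 5 genes kept that order with no overlap of their ranges. Flt3, at 0.191 to 1.42 RPKM, overlapped Itgae and Zbtb46 above and the low genes below it. Cd209a did not exceed 0.668 RPKM, Clec9a 0.366, Xcr1 0.304 and Ccr7 0.267, and those 4 overlapped each other. The 3 highest genes encode transcriptional regulators, and the 4 lowest encode surface receptors of dendritic cell subsets.

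**Figure D1:**
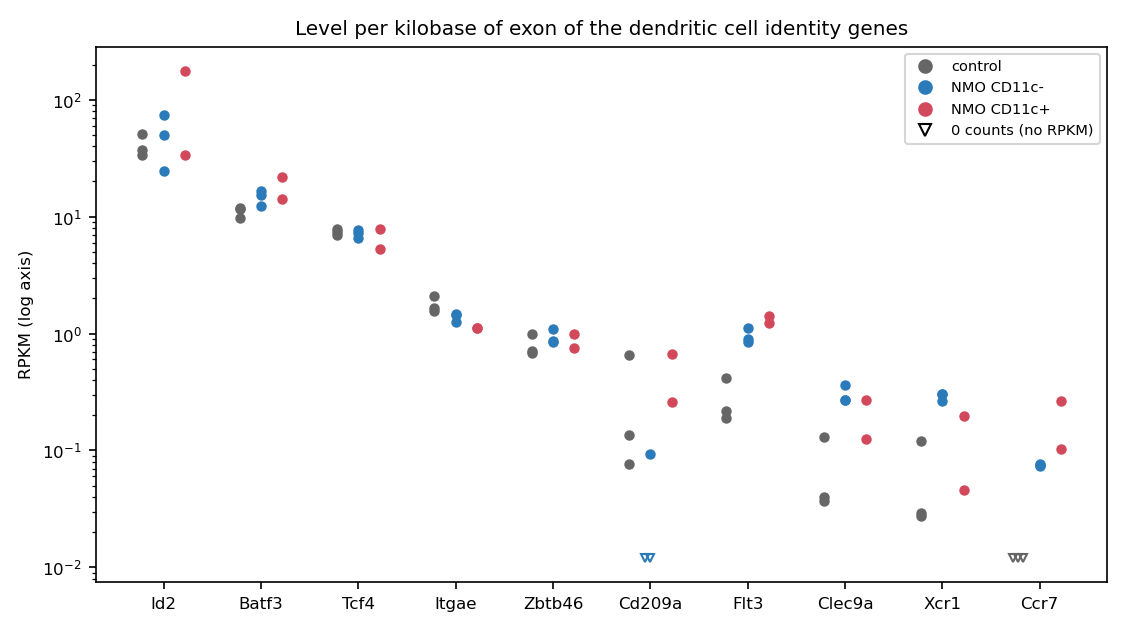
Level per length (RPKM, log axis) of the 10 genes in each of 8 libraries, coloured by group, with open triangles for libraries with 0 counts. Id2 (24.6 to 175 RPKM), Batf3 and Tcf4 stand above the rest, and Cd209a, Clec9a, Xcr1 and Ccr7 do not exceed 0.668 RPKM in any library.

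**Figure D2:**
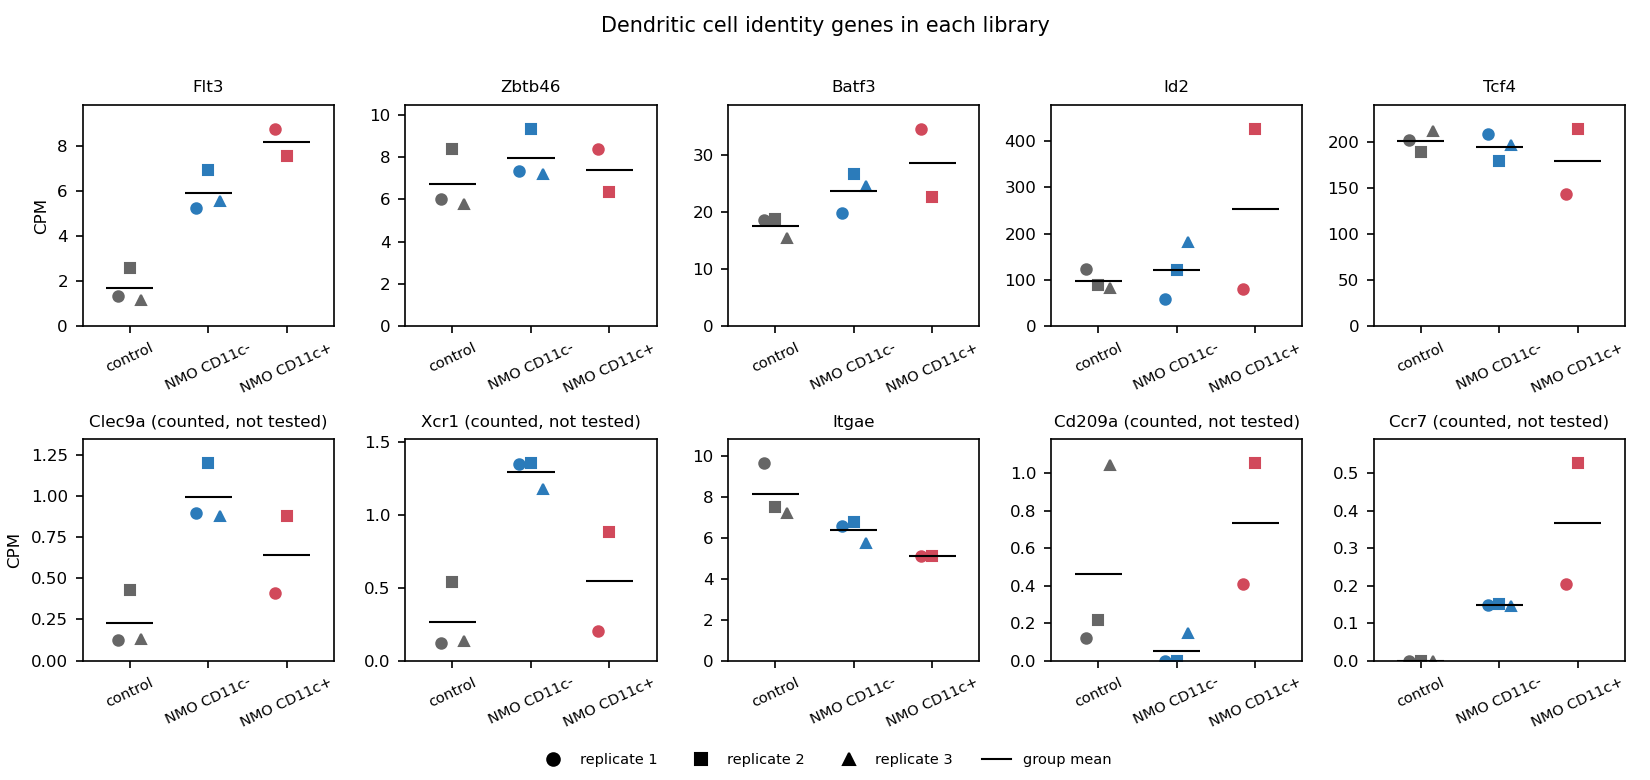
CPM of each gene in every library, one panel per gene, with points for libraries and a line at the group mean. Flt3 in both NMO groups (5.24 to 8.78 CPM) lies above all 3 control libraries (1.18 to 2.57 CPM), while Id2 in CD11c+ spreads from 81.5 to 426 CPM.

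Counted over the comparisons, the 6 tested members gave 1 call in CD11c+ against control and 1 in CD11c- against control, both Flt3 and both higher, and none in CD11c+ against CD11c-. Among all 12002 tested genes 6.85% were called higher and 3.36% lower in CD11c+ against control, 3% higher and 0.717% lower in CD11c- against control, and 0.1% higher and 0.183% lower in CD11c+ against CD11c-. At an unadjusted p under 0.05 the members were 4, 2 and 0, beside 28.8%, 18.8% and 15.4% of all tested genes. Libraries of the groups did not overlap for 3 of the 6 (Flt3, Batf3 and Itgae) in CD11c+ against control, beside 43.7% of all tested genes, for the same 3 in CD11c- against control, beside 33.8%, and for 2 (Flt3 and Itgae) in CD11c+ against CD11c-, beside 28%. Among the 4 untested members the groups did not overlap for 1, 3 and 4 in that order, on 0 to 9 counts a library. No share over other genes below the filter was taken to set beside these. Fitted with no count filter, none of those 4 passed in any comparison. Among the 6 tested members the share whose groups did not overlap was near that of all tested genes. The calls are a result about Flt3 and not about the members together. The medians over the 6 were 0.41, 0.27 and 0.07 on the log2 scale, beside 0.01, 0.00 and 0.01 over all tested genes.

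Flt3 (ENSMUSG00000042817, GRCm38 chromosome 5, 147330741 to 147400489, minus strand) encodes the receptor tyrosine kinase for FLT3 ligand on dendritic cells and their precursors. It was higher in both NMO groups than in control cells. Raw counts were 43 and 43 in CD11c+, 35, 46 and 38 in CD11c-, and 11, 24 and 9 in control libraries, or 8.78 and 7.58, then 5.24, 6.93 and 5.58, then 1.35, 2.57 and 1.18 CPM. Every NMO library lay above every control library, and both CD11c+ libraries lay above all 3 CD11c- libraries. Means were 8.18 ± 0.854 CPM (SD, n = 2) in CD11c+, 5.92 ± 0.892 (n = 3) in CD11c- and 1.70 ± 0.761 (n = 3) in control cells.

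Flt3 rose 4.69-fold in CD11c+ against control cells (log2 fold change 2.23, SE 0.337, adjusted p = 0.00309, edgeR quasi-likelihood test, adjusted over 12002 genes by Benjamini-Hochberg). It rose 3.40-fold in CD11c- against control cells (log2 1.77, SE 0.312, adjusted p = 0.0135 by the same edgeR test). Between CD11c+ and CD11c- cells the log2 difference of Flt3 was 0.46 with SE 0.310, which did not pass (edgeR adjusted p = 0.461). Both rises share the control libraries. The rise in CD11c+ passed under all 18 alternative settings, with log2 fold changes of 2.04 to 2.67. The rise in CD11c- passed under 15 of 18. It missed the threshold without CD11c- replicate 2 (log2 1.64, edgeR adjusted p = 0.0527), without control replicate 1 (1.62, adjusted p = 0.0750) and without control replicate 3 (1.57, adjusted p = 0.0644). Control replicate 2, the highest control for Flt3, was also the highest control for the summed border-associated macrophage markers (113 CPM against 46.7 and 74.7) and for the summed MHC class II genes (451 CPM against 370 in each of the others), and whether these share a source was not tested.

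Of the other tested receptors for dendritic cell growth factors, Csf2ra and Csf2rb rose in CD11c+ against control (log2 1.46 and 0.47). Only Csf2rb rose in CD11c- against control, and Csf1r rose in neither. They come from a list that also holds the ligands, and its counts and medians below include Flt3 itself. Of 4 tested genes of that list (Flt3, Csf2ra, Csf2rb and Csf1r), 3 rose in CD11c+ against control cells and 2 in CD11c- against control, none fell, and none passed between CD11c+ and CD11c- cells (1 at an unadjusted p under 0.05, beside 15.4% of all tested genes). As libraries were left out, 2 to 3 were higher in CD11c+ against control (2 without control replicate 1 or 3) and 0 to 3 in CD11c- against control (0 without CD11c- replicate 2 or control replicate 1 or 3). Their median log2 fold changes were 0.97, 0.61 and 0.24, beside 0.01, 0.00 and 0.01 over all tested genes. Csf2ra, the ligand-binding chain of the GM-CSF receptor, stood at 622 and 365 CPM in CD11c+, 266, 356 and 294 in CD11c- and 168, 177 and 192 in control libraries. The CD11c+ libraries lay above all others. Csf2ra rose in CD11c+ against control cells by 1.46 on the log2 scale (SE 0.206, edgeR adjusted p = 0.00209). Csf2rb, the shared signalling chain, was at 219, 216 and 158 CPM as group means, and its log2 fold change of 0.45 in CD11c- against control passed (edgeR adjusted p = 0.0232) but was lost when any of the 6 CD11c- or control libraries was left out, with adjusted p up to 0.149. Csf1r, the microglial growth factor receptor, was near level at 12380, 12200 and 12420 CPM. Kit was below the count filter, with 6.02 CPM in CD11c- replicate 2 and at most 0.599 CPM elsewhere, and Csf2, which encodes GM-CSF, had no count.

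**Figure D3:**
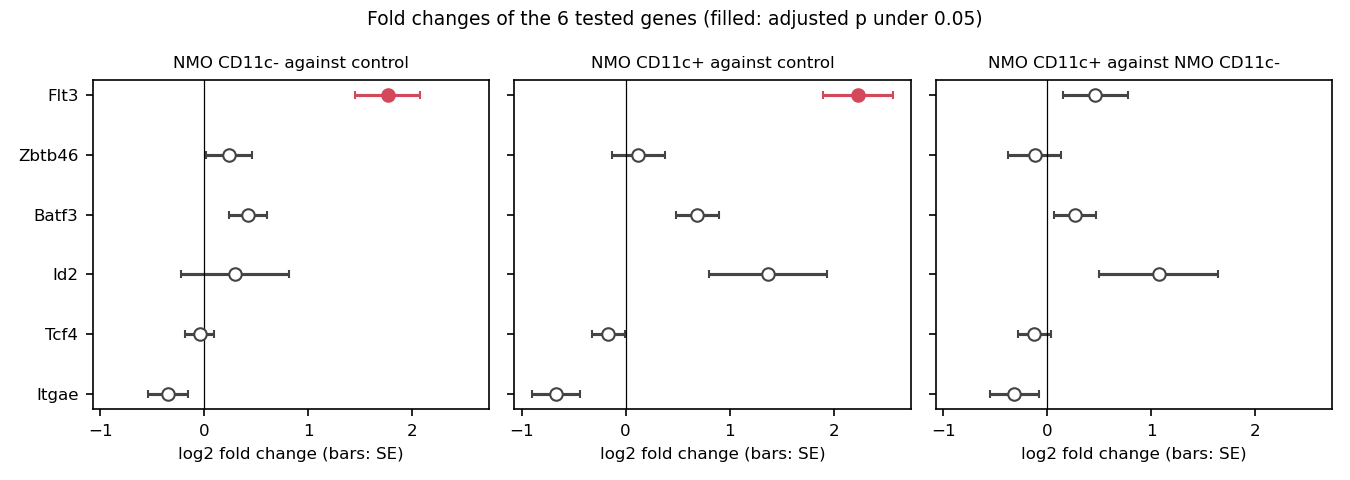
Log2 fold changes of the 6 tested genes in the 3 comparisons, with bars for the SE of the edgeR fit and filled points for adjusted p under 0.05. Flt3 against control (2.23 in CD11c+ and 1.77 in CD11c-) passes the test, and the other members' adjusted p is at least 0.0580.

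Batf3 (ENSMUSG00000026630, chromosome 1, 191097847 to 191108945, plus strand) encodes the AP-1 family factor on which cDC1 depend. It held 34.5 and 22.6 CPM in CD11c+, 19.8, 26.7 and 24.5 in CD11c-, and 18.6, 18.8 and 15.4 in control libraries (118 to 177 counts each). Every NMO library lay above the controls, and CD11c+ replicate 1 was the highest. Against control the log2 fold change was 0.69 in CD11c+ (SE 0.204, edgeR adjusted p = 0.0580) and 0.43 in CD11c- (SE 0.183, adjusted p = 0.242), and neither passed. Over the alternatives the log2 fold change of CD11c+ against control ran from 0.21 to 0.97. It was 0.35 without CD11c+ replicate 1 (adjusted p = 0.321), and it passed with DESeq2 (adjusted p = 0.0337), with no count filter (adjusted p = 0.0129) and without CD11c+ replicate 2 (0.97, adjusted p = 0.00422). Between CD11c+ and CD11c- cells it was 0.27 (SE 0.203, adjusted p = 0.517), and -0.07 without CD11c+ replicate 1. Its AP-1 partners Jun, Junb and Jund were highest in control libraries as group means, at 7035, 3043 and 556 CPM. Their means were 4263, 2858 and 363 CPM in CD11c+, and 2685, 1690 and 205 in CD11c- libraries. The CD11c+ and control libraries overlapped for each of them, and none passed there (edgeR adjusted p = 0.319, 0.916 and 0.299). Jund fell in CD11c- against control by 1.44 on the log2 scale (edgeR adjusted p = 0.0431). That call was lost when any of the 6 CD11c- or control libraries was left out (adjusted p up to 0.163).

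Xcr1 (ENSMUSG00000060509, chromosome 9, 123852315 to 123862029, minus strand) encodes the receptor for the chemokine XCL1 on cDC1. Its raw counts were 1 and 5 in CD11c+, 9, 9 and 8 in CD11c-, and 1, 5 and 1 in control libraries. The 3 CD11c- libraries lay above all 5 others. Summed over libraries, 26 counts in CD11c- stood against 7 in control cells, a ratio per scaled library size of 4.64 (95% counting interval 1.96 to 12.7), and 6 counts in CD11c+ gave a ratio to CD11c- of 0.439 (0.148 to 1.09) and to control of 2.04 (0.566 to 7.09). Leaving out control replicate 2 raised the ratio of CD11c- to control to 10.2 and that of CD11c+ to control to 4.49. Without CD11c+ replicate 2 the ratio of CD11c+ to CD11c- was 0.158 and that to control 0.734, so its direction turned, and without CD11c+ replicate 1 they were 0.682 and 3.17. Fitted with no count filter, its difference between CD11c- and control cells had an edgeR adjusted p of 0.0508. Intervals cover counting error only, and no other test was run on the 4 low genes, since 3 libraries against 3 cannot give a permutation p under 0.1. Xcl1, which encodes its ligand, had no count in any library.

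Clec9a (ENSMUSG00000046080, chromosome 6, 129408862 to 129424763, plus strand) encodes a C-type lectin by which cDC1 bind actin exposed on dead cells. It had 2 and 5 counts in CD11c+, 6, 8 and 6 in CD11c-, and 1, 4 and 1 in control libraries. The order was the same as for Xcr1, with every CD11c- library above the controls, although CD11c+ replicate 2 (0.881 CPM) was level with CD11c- replicate 3 (0.882 CPM). The 20 counts of CD11c- gave a ratio to the 6 of control of 4.17 (1.61 to 12.7), and of 7.86 without control replicate 2. The ratio of CD11c+, with 7 counts, to CD11c- was 0.666 (0.238 to 1.64), or 0.411 without CD11c+ replicate 2, and to control 2.78 (0.799 to 10.0), which was 5.24 without control replicate 2 and 1.71 without CD11c+ replicate 2. Clec9a shares 184 exon bases with its neighbour Clec1b on the same strand, which had 3 to 16 counts a library, so its low counts are uncertain.

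Itgae (ENSMUSG00000005947, chromosome 11, 73090583 to 73147446, plus strand) encodes CD103, the alpha E integrin chain that pairs with beta 7 to bind E-cadherin. It ran the other way. Values were 5.107 and 5.109 CPM in CD11c+, 6.58, 6.78 and 5.73 in CD11c-, and 9.66, 7.499 and 7.19 in control libraries (25 to 79 counts each). The 3 groups did not overlap, with CD11c+ lowest and control highest. The log2 difference of Itgae was -0.67 in CD11c+ against control (SE 0.230, edgeR adjusted p = 0.0920), -0.35 in CD11c- against control (SE 0.192, adjusted p = 0.363) and -0.32 in CD11c+ against CD11c- (SE 0.236, adjusted p = 0.508). None passed in any of 18 alternatives, and the sign was negative in all of them. Haspin lies within Itgae on the opposite strand with no shared exon base and 56 to 103 counts a library. Itgb7, its beta chain, was at 3.06, 2.04 and 1.59 CPM as means of CD11c+, CD11c- and control cells, none of its comparisons passing, and Cdh1, for E-cadherin, had 0 to 3 counts.

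Across a list of 12 cDC1 genes that includes these 3, 8 were tested and 1 rose in CD11c+ against control cells: Cadm1, an adhesion molecule of cDC1, from 164 to 228 CPM as group means (log2 0.48, edgeR adjusted p = 0.0209). That call was lost without control replicate 1, 2 or 3, with adjusted p up to 0.0883. None of the 8 passed in the other comparisons, where the median log2 fold changes were 0.05 (CD11c- against control) and 0.01 (CD11c+ against CD11c-), beside 0.00 and 0.01 over all tested genes. Cd8a had 1 count in each of 2 libraries, and Gcsam none. Cadm1, Tlr3, Wdfy4 and Ppt1 held the most counts of the list, at 409 to 2715 a library.

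Id2 (ENSMUSG00000020644, chromosome 12, 25093799 to 25097140, minus strand) encodes the inhibitor of E proteins that favours conventional over plasmacytoid dendritic cells, and many other cells express it. It spread widely within the NMO groups. Levels were 81.5 and 426 CPM in CD11c+ (399 and 2419 counts), 60.0, 121 and 182 in CD11c-, and 124, 89.7 and 81.6 in control libraries. CD11c+ replicate 2 was the highest library, and CD11c+ replicate 1 was level with the lowest control. The log2 difference was 1.37 against control (SE 0.570, edgeR adjusted p = 0.146) and 1.07 against CD11c- cells (SE 0.570, adjusted p = 0.378), and 0.30 in CD11c- against control (SE 0.522, adjusted p = 0.814). Without CD11c+ replicate 1 the first was 2.11 (adjusted p = 0.0136), and without replicate 2 it was -0.28 (adjusted p = 0.687). With no count filter it passed in CD11c+ against control (edgeR adjusted p = 2.68e-07) and against CD11c- cells (adjusted p = 0.000188). The log2 differences were then 1.333 and 1.055, near those above, but the SE was 0.209 in both, beside 0.570. These passes follow from the smaller SE, while the CD11c+ libraries stood at 81.5 and 426 CPM.

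The tested genes whose profile over the 8 libraries was most like that of Id2 were Pim1 (Pearson r of log2 CPM 0.980), Pmaip1 (0.979) and Osm (0.969). Pim1, a serine/threonine kinase, was at 16.8 and 56.0 CPM in CD11c+, 13.9, 18.1 and 27.5 in CD11c-, and at most 19.7 in control libraries. CD11c+ replicate 2 was again the highest and CD11c- replicate 1 the lowest. Osm, the cytokine oncostatin M, was at 172 CPM in CD11c+ replicate 2 and at 34.6 to 70.4 in the others. Pmaip1, a BH3-only apoptosis gene, was at 73.5 CPM there and at 10.2 to 29.8 elsewhere. For Flt3 the most alike genes were Zfp524 (r = 0.996), Dhrs11 (0.986) and Oas1b (0.986). Oas1b, an interferon-induced gene, was at 11.6 and 8.46 CPM in CD11c+, 7.33, 9.34 and 7.79 in CD11c-, and 3.18, 5.46 and 3.27 in control libraries, all NMO libraries lying above the controls. The same search gave Arfip2 (0.993), Ogfr (0.991) and Sirt6 (0.988) for Batf3, Ttc39b (0.987), Ktn1 (0.986) and Itpa (0.985) for Tcf4, Med27 (0.989), Pithd1 (0.972) and Gm15774 (0.959) for Itgae, and Zfp830 (0.962), Actr5 (0.955) and Mbd4 (0.935) for Zbtb46. These are the highest of 12002 genes over 8 libraries in 3 groups, so they share libraries and depth and are a description. Among the members themselves, Flt3 and Batf3 moved most alike (r = 0.843), Flt3 and Itgae most oppositely (-0.827), and Batf3 and Tcf4 nearly so (-0.812).

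**Figure D4:**
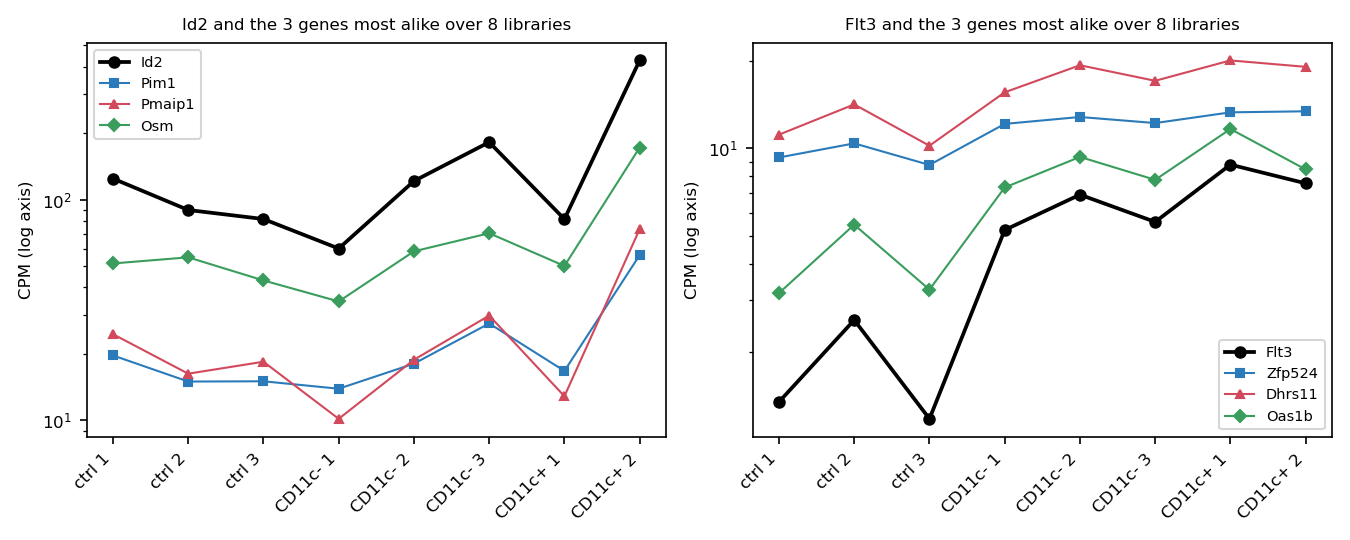
CPM (log axis) in each of the 8 libraries for Id2 (left) and Flt3 (right), each with the 3 genes of highest Pearson correlation; lines join the libraries of a gene for reading only. All 4 genes on the left are highest in CD11c+ replicate 2 (Id2 426 CPM), and Flt3 on the right lies at 1.18 to 2.57 CPM in control and 5.24 to 8.78 in NMO libraries.

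Tcf4 (ENSMUSG00000053477, chromosome 18, plus strand) encodes the E protein on which plasmacytoid dendritic cells depend, and it is expressed in many other tissues. It was near level: 144 and 215 CPM in CD11c+, 209, 180 and 197 in CD11c-, and 202, 189 and 213 in control libraries. CD11c+ replicate 1 was the lowest of the 8 and replicate 2 the highest. The log2 differences of Tcf4 were -0.12 in CD11c+ against CD11c- (SE 0.160, edgeR adjusted p = 0.712), -0.04 in CD11c- against control (SE 0.142, adjusted p = 0.903) and -0.17 in CD11c+ against control (SE 0.160, adjusted p = 0.522). Correcting each library for GC content and length turned the 3 differences to 0.21, 0.04 and 0.25, with none passing. Without CD11c+ replicate 2 the first and last were -0.45 (adjusted p = 0.0249) and -0.49 (adjusted p = 0.0124), and without CD11c+ replicate 1 they were 0.14 and 0.09.

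Within the E protein and Id family, 5 of 7 genes were tested (Tcf3, Tcf4, Tcf12, Id1 and Id2) and none passed in any comparison, with medians of 0.19, -0.05 and -0.10 in the order of comparisons used for Tcf4. At an unadjusted p under 0.05 they were 1, 0 and 3, beside 15.4%, 18.8% and 28.8% of all tested genes. Tcf3 was at 100.4, 79.6 and 82.6 CPM and Tcf12 at 57.4, 64.7 and 74.5 as means of CD11c+, CD11c- and control cells. Id1 was low, at 1.86, 1.65 and 2.03 CPM. Id3 held 6 and 0 counts in CD11c+, 4, 5 and 3 in CD11c-, and 12, 23 and 8 in control libraries, and relative to depth CD11c+ replicate 1 (1.23 CPM) exceeded the lowest control (1.05 CPM). Every control library lay above the CD11c- libraries. Its summed ratio to control was 0.349 in CD11c- (95% counting interval 0.167 to 0.673) and 0.332 in CD11c+ (0.116 to 0.784). Id4 had 1 to 4 counts a library.

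Zbtb46 (ENSMUSG00000027583, chromosome 2, 181387762 to 181459426, minus strand) encodes the zinc finger factor that sets conventional dendritic cells apart from other myeloid cells. It was present at 36 to 78 counts a library and did not follow the groups. Levels were 8.38 and 6.34 CPM in CD11c+, 7.33, 9.34 and 7.20 in CD11c-, and 5.99, 8.36 and 5.75 in control libraries, and all 3 groups overlapped. Log2 differences of Zbtb46 were -0.12 in CD11c+ against CD11c- (SE 0.256, edgeR adjusted p = 0.836), 0.24 in CD11c- against control (SE 0.220, adjusted p = 0.615) and 0.12 in CD11c+ against control (SE 0.255, adjusted p = 0.786). The first became 0.07 without CD11c+ replicate 2 and 0.01 without CD11c- replicate 2, and the last -0.09 without CD11c+ replicate 1.

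Of 18 other dendritic cell transcription factors, 17 were tested, none passed between CD11c+ and CD11c- cells (3 at an unadjusted p under 0.05, beside 15.4% of all tested genes), and their median log2 fold changes against control were 0.07 in CD11c- and 0.10 in CD11c+. Relb, the NF-kappaB subunit of mature dendritic cells, was at 83.8 and 64.3 CPM in CD11c+, 47.1, 54.5 and 48.9 in CD11c-, and 34.4, 37.9 and 34.0 in control libraries. The 3 groups did not overlap. Relb rose 2.08-fold in CD11c+ against control cells (log2 1.06, SE 0.133, edgeR adjusted p = 0.00117), and in CD11c- the log2 difference was 0.50 (adjusted p = 0.0520). Bcl6, a transcriptional repressor, was at 42.4, 38.4 and 27.1 CPM as means of CD11c+, CD11c- and control cells. Bcl6 rose in CD11c+ (log2 0.65, edgeR adjusted p = 0.00634) and in CD11c- (0.50, adjusted p = 0.0224) against control, the latter call being lost without any of its 6 libraries (adjusted p up to 0.114). Irf8, which acts with BATF3 in cDC1 and is also a microglial factor, was at 958, 744 and 712 CPM (log2 0.43 in CD11c+ against control, edgeR adjusted p = 0.0604).

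Cd209a (ENSMUSG00000031494, chromosome 8, 3743397 to 3748984, minus strand) encodes a C-type lectin related to human DC-SIGN. It had 2 and 6 counts in CD11c+, 0, 0 and 1 in CD11c-, and 1, 2 and 8 in control libraries. The CD11c- group held the fewest counts, although CD11c- replicate 3 (0.147 CPM) lay above control replicate 1 (0.122 CPM). Control replicate 3 held 8 of the 11 control counts. The CD11c- sum of 1 count gave a ratio to control of 0.114 (95% counting interval 0.00264 to 0.782), and the ratio of CD11c+, with 8 counts, to CD11c- was 15.2 (2.04 to 676). Without CD11c- replicate 3 no count was left in that group, and only bounds from a floor of 3 counts over the group remained. These were at least 3.36-fold higher for CD11c+, and at most 0.515 of control for CD11c-. They put no counting error on the observed counts of CD11c+ and control. CD11c+ stood to control at 1.73 (0.604 to 4.72), and at 4.42 without control replicate 3 and 0.934 without CD11c+ replicate 2.

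No gene of the CD209 family passed the count filter. Cd209b had 1 to 10 counts a library and Cd209f 2 to 13. Cd209c had 0 to 3 and Cd209g 0 to 4, and Cd209d and Cd209e had none in any library. Because the paralogs are similar in sequence, counts may be split between them. Among 10 cDC2 genes with Cd209a, 7 were tested and none was called, with 0 at an unadjusted p under 0.05 in each comparison and median log2 fold changes of 0.05, 0.27 and 0.26 (CD11c+ against CD11c-, CD11c- against control, CD11c+ against control). Sirpa, an inhibitory receptor of cDC2 that microglia also express, was at 3138, 3205 and 3235 CPM as means of CD11c+, CD11c- and control cells.

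Ccr7 (ENSMUSG00000037944, chromosome 11, 99144196 to 99155077, minus strand) encodes the chemokine receptor of migrating mature dendritic cells and of T cells. It had 1 and 3 counts in CD11c+, 1, 1 and 1 in CD11c-, and 0, 0 and 0 in control libraries. All NMO libraries held a count and no control did. Against a floor of 3 counts over the control group, the 4 counts of CD11c+ gave a ratio of 3.17, or 1.996 without control replicate 2. That ratio puts no counting error on the 4 counts. The 95% counting intervals overlapped, at 0.103 to 0.969 CPM in CD11c+ and 0 to 0.147 CPM in control. For the 3 counts of CD11c- no fold is given. CD11c+ stood to CD11c- at 2.54 (95% counting interval 0.430 to 17.3). Ccl19 and Ccl21a, which encode its ligands, had no count in any library.

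Of the genes of mature migratory dendritic cells, part rose in NMO cells. With Ccr7 the list holds 15 genes, of which 11 were tested. In CD11c+ against control 5 rose (Socs2, Cd83, Cd274, Il12b and Relb) and Fscn1 fell, and in CD11c- against control Cd274 rose and Fscn1 fell. None passed between CD11c+ and CD11c- cells, where 2 were at an unadjusted p under 0.05, beside 15.4% of all tested genes. Medians were 0.80 and 0.48 against control, and 0.33 between the NMO groups. Il12b was low, at 4 and 14 counts in CD11c+, 8, 13 and 4 in CD11c-, and 1, 3 and 1 in control libraries. Its call in CD11c+ was lost without CD11c+ replicate 2, CD11c- replicate 1 or 2, or any control. The call of Socs2 was lost without CD11c+ replicate 1 or any control. Cd274, the ligand of PD-1, was at 34.9 and 42.6 CPM in CD11c+, 26.3, 28.8 and 24.2 in CD11c-, and 13.8, 17.8 and 18.4 in control libraries, without overlap between groups. It rose 2.33-fold in CD11c+ against control (edgeR adjusted p = 0.00156) and 1.58-fold in CD11c- (adjusted p = 0.0377), the latter lost without any of its 6 libraries (adjusted p up to 0.166). Fscn1, for the actin-bundling protein fascin, moved the opposite way, from 642 CPM in control to 364 in CD11c- and 430 in CD11c+ cells. Its fall of 0.82 on the log2 scale in CD11c- (edgeR adjusted p = 0.00759) became adjusted p = 0.0505 without control replicate 1. Its fall in CD11c+ was lost without CD11c- replicate 1 or 3 or any control (adjusted p up to 0.108). As libraries were left out in turn, 2 to 5 genes were higher in CD11c+ against control (fewest without any of the 3 controls) and 0 to 4 in CD11c- (0 without any CD11c- or control library, 4 without either CD11c+ library).

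Other dendritic cell lists gave the following. Of 9 tested pan-conventional genes, which include Flt3 and Zbtb46, 5 rose in CD11c+ against control (Flt3, Itgax, Kmo, Ciita and H2-Oa), 1 in CD11c- against control (Flt3) and 1 in CD11c+ against CD11c- (Itgax, the sorted marker). As libraries were left out, the first count ran from 3 to 5, and was 3 without CD11c+ replicate 1, CD11c- replicate 1 or 3, or any control. The second ran from 0 (without CD11c- replicate 2 or control replicate 1 or 3) to 4 (without either CD11c+ library), and the last stayed at 1. None of the 9 was called lower, but not all rose. Cd24a had 0 counts in both CD11c+ libraries, 95, 342 and 84 in CD11c- and 25, 45 and 64 in control libraries. It did not pass in CD11c+ against CD11c- (edgeR adjusted p = 0.0554) or control (adjusted p = 0.0562). Adam19 was at a log2 difference of -1.80 in CD11c+ against CD11c- (adjusted p = 0.196). Among fits that kept both CD11c+ libraries, 1 gene was called lower in CD11c+ than in CD11c- without CD11c- replicate 2 or 3. Of 5 tested plasmacytoid genes, which include Tcf4, Bst2 and Cox6a2 rose and Siglech fell in CD11c+ against control, and Bst2 rose in CD11c- against control. Bst2, an interferon-induced surface protein, was at 145 and 123 CPM in CD11c+, 94.0, 126 and 94.9 in CD11c-, and 48.7, 49.8 and 44.99 in control libraries, so all NMO libraries were above the controls (log2 1.49 and 1.13, edgeR adjusted p = 0.000286 and 0.00140). Without any of the controls 1 gene, and not 2, was higher in CD11c+, and Siglech was lost as a call without 6 of the 8 libraries (adjusted p up to 0.0971). Siglech, which microglia also express, was at 1037, 1413 and 1676 CPM as means of CD11c+, CD11c- and control cells, and it is on the microglia list, of whose 10 genes 4 fell in CD11c+ against control (P2ry12, Cx3cr1, Siglech and Gpr34), and 1 to 5 as libraries were left out, with 1 without control replicate 2. Ly6d and Klk1 had no count in any library. Among the pan-conventional calls against control, Kmo rested on 8 and 10 counts in CD11c+ and 1, 3 and 1 in control libraries. It was lost without control replicate 1 or 3. Ciita rested on 10 and 18 counts against 3, 6 and 9. Its call held in only 2 of the 8 fits that left out a library. These were the fits without CD11c- replicate 2 and without control replicate 3. Dropping any other library, each CD11c+ library included, lost the call of Ciita.

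MHC class II genes, by which dendritic cells present antigen and which activated microglia also express, rose in part in NMO cells. Of 10 tested, 6 rose in CD11c+ against control (H2-Aa, H2-Ab1, H2-Eb1, Cd74, Ciita and H2-Oa) and 2 in CD11c- (H2-Ab1 and H2-Eb1), with medians of 1.02 and 0.54. Leaving out libraries moved the first count from 3 (without CD11c- replicate 1 or 3 or control replicate 2) to 6, and the second from 0 (without CD11c- replicate 2 or control replicate 1 or 3) to 5 (without either CD11c+ library). Between CD11c+ and CD11c- cells none passed, 4 were at an unadjusted p under 0.05 (15.4% of all tested genes were), and the median was 0.36. H2-Ab1 was at 57.4 and 64.7 CPM in CD11c+, 38.0, 48.5 and 38.1 in CD11c-, and 16.3, 26.0 and 23.4 in control libraries. The groups did not overlap, and its rise in CD11c+ was 2.78-fold (edgeR adjusted p = 0.00132). Among markers of other cells beside these, Cd22, which encodes a surface protein of B cells, rose in all 3 comparisons (59.8, 35.9 and 17.8 CPM as group means). Its call between CD11c+ and CD11c- was lost without CD11c+ replicate 1 or any CD11c- or control library. The 6 border-associated macrophage markers, at 56.2 and 122 CPM in CD11c+, 104 to 131 in CD11c- and 46.7 to 113 in control libraries, had no called gene in any comparison (0 at an unadjusted p under 0.05).

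The plot of settings shows how far each member moved with the processing in CD11c+ against control. Flt3 and Itgae kept their sign in all 18 settings of each comparison. In CD11c+ against control Batf3 kept its sign too, and Id2, Tcf4 and Zbtb46 changed sign in at least 1 setting.

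**Figure D5:**
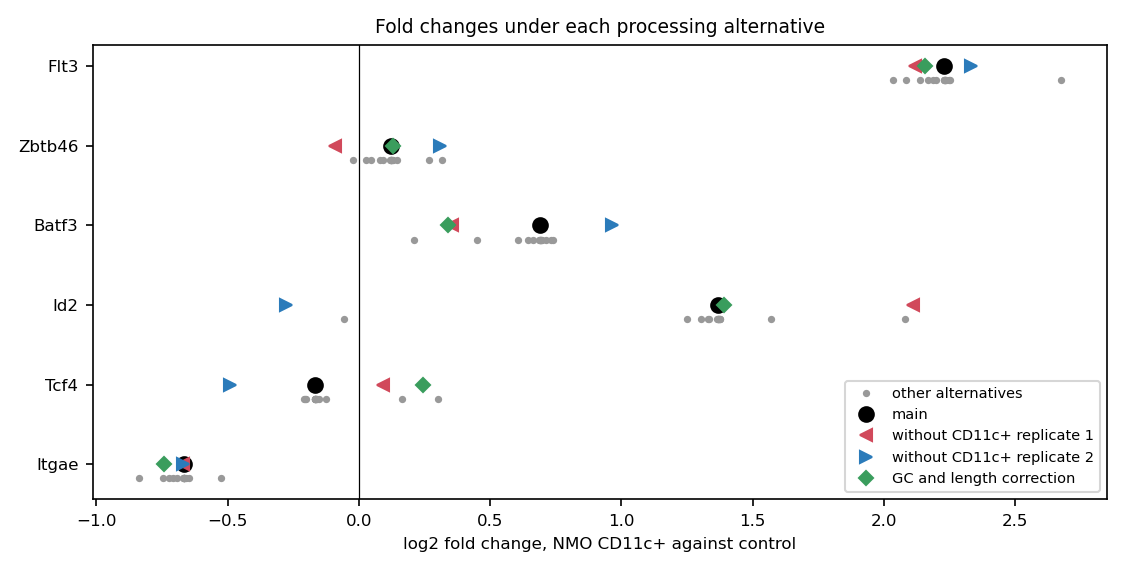
Log2 fold change of each tested member in CD11c+ against control, with the value reported (black, main), 3 named alternatives (coloured) and the other 15 (grey). Flt3 stays between 2.04 and 2.67 while Id2 runs from -0.28 to 2.11 and Tcf4 from -0.49 to 0.30.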

How the data were processed

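The values are raw gene counts that the authors deposited, with a file for each library. Per the submitters' processing notes, STAR 2.3.11, HTSeq 0.5.4, edgeR 3.12.0 and GRCm38 were used; the strand setting and annotation release were not given in the sources used here, so reads of genes that overlap on opposite strands may not be separated. Symbols, positions, exon lengths and GC content came from GENCODE M21: 40254 identifiers matched and 1134 did not (0.155% of counts), and 1 listed gene, Flt3l, had no match. Columns of per-sample values left unused numbered 0. Pairs of libraries of 1 group differed beyond sampling noise (chi-square per degree of freedom 6.31 to 36.9), so none was a duplicate.

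Tests used edgeR 4.0.16 and limma 3.58.1 under R 4.3.3. The filter was filterByExpr on the groups (minimum count 10), scaling was by TMM, and all 8 libraries entered 1 quasi-likelihood fit (residual degrees of freedom 5, prior 5.08, common dispersion 0.0223). Calls needed a p under 0.05 after Benjamini-Hochberg adjustment over all 12002 tested genes, and every adjusted p in the text is from this fit unless another tool or setting is named. CPM use the TMM-scaled library size, and RPKM are CPM per kilobase of union exon. For genes below the filter the text gives counts and ratios of summed counts with exact 95% intervals, which cover counting error only. Where a group held 0 counts, a floor of 3 counts over that group gave a bound. Such a bound puts no counting error on the counts of the other group. The scripts were tested on simulated data. Alternatives were RLE, upper quartile and no scaling factors, no filter and a minimum count of 30, DESeq2 1.42.0, only the groups compared, leaving out each library, and correction of every library for gene GC and length (values for 99.53% of tested genes). That correction together with leaving out a CD11c+ library was added after seeing the data.

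The members and the 22 gene lists were chosen with earlier results of these data known. Named are all members, the E protein and Id, CD209 and partner genes, of every other list up to 4 tested genes with the smallest adjusted p and any called gene, and for each tested member the 3 genes with mean CPM no lower than 5 and the highest Pearson correlation of log2 CPM (prior count 2). Genes with few or no counts, and Tlr3, Wdfy4, Ppt1, Sirpa and Irf8, are named after a look at their values wherever the rule does not name them. Lists of neuron and oligodendrocyte genes (3 tested, none called) and of astrocyte and endothelial genes (5 tested; Pecam1 lower in both NMO groups and Kdr higher in CD11c+, against control) were also read. The summed level of the B cell list is not reported here. Raw reads, sorting data and protein were not analysed here.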

Additional observations from a re-analysis of the deposited data

How the results depend on the processing

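No paired analysis was possible because the labels link no libraries and numbers were given by accession. In the order CD11c+ against CD11c-, CD11c- against control and CD11c+ against control, 34, 446 and 1225 genes and 0, 1 and 1 members were called. Leaving out each library gave 4 to 3016, 141 to 1193 and 487 to 4077 genes, and 0 to 1, 0 to 1 and 1 to 3 members. The most genes in the first and last came without CD11c+ replicate 2 and in the second without CD11c+ replicate 1, and the fewest without CD11c+ replicate 1, control replicate 1 and control replicate 3. No count filter gave 707, 1157 and 2115 genes, and 1 and 3 members in the first and last comparison. DESeq2 gave 268 and 696 genes in the first and second comparison and 2 members in the last. Fitting only the groups compared gave 5, 1221 and 627 genes. The GC and length correction gave 70 and 905 genes in the first and second, together with leaving out CD11c+ replicate 1 gave 5 and 1457 genes and 2 members in the last, and together with leaving out CD11c+ replicate 2 gave 619, 1454 and 2246 genes. Without scaling factors 25% of the first comparison's calls were higher, against 35.3% with TMM.

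Log2 differences of members that changed sign were these, and none was called where it did. Leaving out each library in turn gave, in the first comparison, -0.068 to 0.544 for Batf3 (negative without CD11c+ replicate 1), -0.446 to 0.136 for Tcf4 (positive without CD11c+ replicate 1), -0.572 to 1.816 for Id2 (negative without CD11c+ replicate 2) and -0.326 to 0.073 for Zbtb46 (positive without CD11c+ replicate 2 and, at 0.011, without CD11c- replicate 2). In the second it gave -0.124 to 0.621 for Id2 (negative without CD11c- replicate 3) and -0.093 to 0.014 for Tcf4 (positive without CD11c- replicate 2). In the last it gave -0.089 to 0.318 for Zbtb46 and -0.49 to 0.092 for Tcf4 (each crossing without CD11c+ replicate 1) and -0.278 to 2.11 for Id2 (negative without CD11c+ replicate 2). The GC and length correction gave Batf3 -0.018 in the first, and Tcf4 0.206, 0.039 and 0.245 in the 3 comparisons. With CD11c+ replicate 1 left out as well it gave Batf3 -0.144 in the first, Tcf4 0.263, 0.038 and 0.301, and Zbtb46 -0.022 in the last. With CD11c+ replicate 2 left out as well it gave Id2 -0.329 and -0.057 in the first and last, and Tcf4 0.12, 0.045 and 0.166. The cause was not tested. Of the other log2 differences of members, 288 kept their direction and side of the threshold, 9 newly passed it and 3 (Flt3 in CD11c- against control) no longer did. Of the count ratios of the 4 low genes, 90 stayed within the counting interval and 3 left it, and within it too ratios moved by over 1.5 times without a CD11c+ library, CD11c- replicate 3, or control replicate 2 or 3. Without CD11c+ replicate 2 the ratio of CD11c+ to control fell below 1 for Xcr1 (0.734) and Cd209a (0.934). Members with under 10 counts a library limit what depth can show.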
